A study of Homo sapiens with 6 samples.

Results

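PCGF3 was followed through a pooled CRISPR screen by every guide RNA assigned to it in the count table, which gave 10 of the 3653 guides in the library. The 10 guides fell into 2 runs of 5 consecutive numbers, 851 to 855 and a later run that ended at 1500. Gene names ran in alphabetical order up to the guide before the later run, whose first guide was the first break in that order. Guides before this break are called the first set and those from it on the second set. The division follows the guide numbers and not the measured values, but earlier results of these data were known when it was chosen. In the order of their numbers the PCGF3 guides of the first set are called A1 to A5, and those of the second set B1 to B5. All 10 guides passed the filter on low counts, which asked for 30 or more counts on average at day 0.

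The cells were HS-SY-II, a human synovial sarcoma line that carries the SS18::SSX1 fusion, made to express Cas9 and transduced with lentiviral guides. Guides were sequenced from 2 tumours grown under the skin of athymic nude mice, which lack T cells (in vivo), from 2 cultures kept for 14 days (in vitro), and from 2 aliquots frozen after puromycin selection (day 0). All 6 libraries came from this 1 line, all carried Cas9 and the same guide library, and the cells of each transduction gave a day 0 aliquot and were then divided between the arms. In the sample labels the tumours are replicates 1 and 2, while a supplementary plot of the study gives both to replicate 1, and the numbering of the labels was kept here.

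PCGF3 belongs to the PCGF proteins, which pair with RING1 or RNF2, the E3 ubiquitin ligases of Polycomb repressive complex 1 (PRC1). Complexes built on PCGF3 are noncanonical: they hold RYBP or YAF2 in place of a CBX protein, and they place monoubiquitin on histone H2A without needing the H3K27me3 mark. In synovial sarcoma the fusion protein, as part of an altered BAF complex, is known to occupy chromatin that carries this H2A mark, and PCGF3 has been described as a gene on which these cells depend. In a screen of this kind a guide against a gene needed for growth becomes rarer as the cells divide.

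The PCGF3 gene (ENSG00000185619.19) lies on the plus strand of chromosome 4, at chr4:705748-770089 of hg38. Its main transcript in GENCODE 44 has 8 coding exons with 726 coding bases, and 110 positions on both strands where Cas9 could cut next to an NGG motif. The first 2 coding exons are shown because they open the reading frame that a guide must break. They lie at chr4:733681-733789 (109 bases, 16 such positions) and chr4:734931-735027 (97 bases, 21 such positions), and capitals mark each GG of an NGG motif on the plus strand.
PCGF3 coding exon 1: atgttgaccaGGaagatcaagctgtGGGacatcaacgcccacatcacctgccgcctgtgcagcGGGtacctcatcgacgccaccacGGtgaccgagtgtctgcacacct
PCGF3 coding exon 2: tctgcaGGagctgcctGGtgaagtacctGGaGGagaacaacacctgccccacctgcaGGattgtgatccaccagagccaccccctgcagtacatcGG
Guide sequences were not used here, so which of these positions the 10 guides cut was not determined.

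Libraries held 3394352 to 21854232 counts, with day 0 replicate 1 the deepest. Levels are CPM, counts scaled to the size of the library with TMM factors, and a log2 fold change of 1 library is its log2(CPM + 1) minus the mean of the 2 day 0 libraries. TMM centres the whole library, and on this scale the 183 non-targeting guides, which match no human gene, had a median fitted log2 fold change of 0.57 in vivo and 0.50 in vitro. A guide that drops out with its cells and a guide whose cells only divide more slowly cannot be told apart from such counts.

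The second set held the PCGF3 guides that were rare after growth. Guide B5 was at 35.8 and 21.2 CPM in the tumours, 3.13 and 0.665 CPM in the cultures and 171 and 214 CPM at day 0. Guide B2 was at 1.11 and 0.91 CPM in the tumours, 0.784 and 11.5 CPM in the cultures and 85.8 and 161 CPM at day 0. For both guides every later library lay below both day 0 libraries.

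Guide B1 was at 4.99 and 13.2 CPM in vivo, 7.57 and 7.98 CPM in vitro and 266 and 88.9 CPM at day 0. Guide B4 was at 47.7 and 27.7 CPM in vivo, 30.6 and 31.0 CPM in vitro and 226 and 206 CPM at day 0. These 2 guides also lay below both day 0 libraries in every later library, and their 2 cultures were nearly level with each other. The exception in the second set was guide B3, at 83.4 and 173 CPM in vivo, 48.8 and 121 CPM in vitro and 99.2 and 282 CPM at day 0. Its day 0 libraries lay so far apart that 1 tumour and 1 culture fell between them.

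Several of these levels rest on few reads. Guide B2 had 4 and 6 counts in the tumours, 3 and 52 in the cultures and 2106 and 830 at day 0. Guide B5 had 129 and 139 counts in the tumours, 12 and 3 in the cultures and 4199 and 1099 at day 0. The 3 counts of guide B2 in day 14 replicate 1 stood at 0.634% of its day 0 mean level (95% exact Poisson interval 0.131 to 1.85%), and the 3 counts of guide B5 in day 14 replicate 2 at 0.346% (0.0713 to 1.01%). These intervals cover counting error only, since reads from PCR are not independent molecules.

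In edgeR's quasi-likelihood fit of all guides, the log2 fold changes of guide B2 were -6.92 ± 1.69 in vivo and -4.32 ± 1.48 in vitro, and those of guide B1 were -4.27 ± 1.11 and -4.51 ± 1.12 (± SE, from the F statistic). Guide B5 was at -2.76 ± 0.99 in vivo and -6.67 ± 1.21 in vitro, and guide B4 at -2.52 ± 0.77 and -2.81 ± 0.78. Guide B3 was at -0.57 ± 0.80 and -1.16 ± 0.81, the smallest change of the 5 in each arm. After Benjamini-Hochberg adjustment over 3607 guides, 0 of the 10 PCGF3 guides passed 0.05 in either arm. The lowest adjusted p of a PCGF3 guide was 0.0699 in vivo (guide B2) and 0.183 in vitro (guide B5). Over the whole library 1.14% of guides were called lower in vivo and 0% in vitro by this test.

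At an unadjusted p under 0.05, 4 of the 5 second set guides were lower in each arm, all but guide B3, and 0 of the 5 first set guides. Where day 0 replicate 1 was left out these 4 became 1 in vivo and 2 in vitro, and where day 0 replicate 2 was, 2 in vivo and 3 in vitro. The share of all kept guides lower by that rule was 12.8% in vivo and 7.18% in vitro, and among second set guides of the 299 genes with at least 3 kept guides in each set it was 22.2% and 13.3%. Among first set guides of these genes it was 3.75% in vivo and 1.41% in vitro. DESeq2 called guides B1, B2, B4 and B5 lower in both arms (adjusted p 1.27e-05 to 0.0221 in vivo and 3.59e-09 to 0.0269 in vitro), where it called 10.3% of all guides lower in vivo and 3.47% in vitro. The same 4 guides were the ones whose later libraries both lay below both day 0 libraries, a pattern shown by 30.6% of all guides in vivo and 31.5% in vitro. Among the second set guides of the 299 genes 48.3% showed it in vivo and 53.7% in vitro. The 5 guides share a target and are not replicates of a condition.

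The PCGF3 guides of the first set were all at 120.03 CPM or more in every later library. Guide A3 was at 976 and 438 CPM in the tumours, 622 and 400 CPM in the cultures and 310 and 299 CPM at day 0. Every later library of guide A3 lay above both day 0 libraries, and its log2 fold change was 1.22 ± 0.52 in vivo and 0.75 ± 0.51 in vitro. Guide A3 in vivo was the 1 PCGF3 guide that was higher at an unadjusted p under 0.05 (adjusted p 0.189), against 12.9% of all guides in vivo and 1.22% in vitro.

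Guide A1 was at 424 and 229 CPM in vivo, 298 and 322 CPM in vitro and 233 and 186 CPM at day 0. Guide A5 was at 120.03 and 168 CPM in vivo, 262 and 182.5 CPM in vitro and 160 and 179 CPM at day 0. These guides were above both day 0 libraries in both cultures and overlapped them in the tumours.

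Guide A2 was at 519 and 237 CPM in vivo, 594 and 299 CPM in vitro and 287 and 398 CPM at day 0. Guide A4 was at 153 and 284 CPM in vivo, 258 and 175 CPM in vitro and 193 and 126 CPM at day 0. Both overlapped day 0 in each arm, and no first set guide lay below both day 0 libraries in both libraries of an arm. In all, 1 of 5 first set guides lay above both day 0 libraries in both tumours and 3 of 5 in both cultures, where 23.9% and 27.1% of all guides, and 42.6% and 55.7% of the non-targeting guides, did so. The median fitted log2 fold change of the first set was 0.45 in vivo and 0.44 in vitro.

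With counts summed over the guides of a set, second set PCGF3 guides fell in both arms. Their sum was 173 and 236 CPM in the tumours, against 848 and 951 CPM at day 0, a log2 fold change of -2.13 ± 0.56 and 4.39-fold lower (edgeR adjusted p 0.0212 over 647 sums). It was 90.9 and 172 CPM in the cultures, against the same day 0 values, a log2 fold change of -2.77 ± 0.58 and 6.84-fold lower (edgeR adjusted p 0.0429). By the same test 20.1% of the 348 second set sums were lower in vivo and 4.89% in vitro, and over both sets 10.8% of the 647 sums in vivo and 2.63% in vitro. Over the 348 second set sums, that of PCGF3 was the 23rd lowest in vivo and the 16th lowest in vitro. Without either day 0 library or without either day 14 library the log2 fold changes stayed between -2.12 and -2.04 in vivo and between -3.26 and -2.35 in vitro. Both calls were lost in these fits, as was every other call of a lower sum in the library. Guide B3 alone gave 83.4 of the 173 CPM and 173 of the 236 CPM of the tumour sums, and 48.8 of the 90.9 CPM and 121 of the 172 CPM of the culture sums, so this guide carried more than any other of what remained in each later library. In a replicate block that follows the study's plot, with both tumours in block 1, neither call was kept (-1.87 in vivo and -2.84 in vitro, adjusted p 0.0897 and 0.0783). That fit called 32 of 647 sums lower in vivo and 2 in vitro.

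The first set sum was 2193 and 1356.5 CPM in the tumours, 2035 and 1379 CPM in the cultures and 1184 and 1189 CPM at day 0. All 4 later libraries were above both day 0 libraries. How many other first set sums showed this was not counted. Of the single first set guides of the 299 genes, 37.0% lay above both day 0 libraries in both tumours and 46.8% in both cultures. The first set sum of PCGF3 was then tested. Its log2 fold changes, 0.58 ± 0.32 in vivo (edgeR adjusted p 0.174) and 0.52 ± 0.32 in vitro (edgeR adjusted p 0.322), were of the size of the median non-targeting guide and did not pass the test. Scaled to the non-targeting guides they were 0.02 in vivo and -0.00462 in vitro, and the second set sum was then at -2.66 in vivo and -3.31 in vitro. In the main fit 122 of the 299 first set sums were called higher in vivo and 0 in vitro. Without in vivo replicate 2 the in vivo value of PCGF3 was 0.89. With an in vivo library left out more sums were called higher over the whole library. The first set sum of PCGF3 was then among them in vivo without replicate 2, and in vitro without either.

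The 2 sets were then set against each other within each library, which does not depend on how libraries are scaled to one another except through the added pseudocount of 1. The mean log2(CPM + 1) of the second set minus that of the first was -4.20 and -3.71 in the tumours, -5.24 and -4.14 in the cultures and -0.57 and -0.30 at day 0. All 4 later values lay below both day 0 values, as they did for many other genes, whose share was not counted. Relative to day 0 this difference changed by -3.52 ± 0.48 in vivo (limma, adjusted p 0.00132) and by -4.25 ± 0.48 in vitro (limma, adjusted p 0.00118). Such a drop was common in this library: 47.5% of the 299 genes passed the same test in vivo and 23.1% in vitro, with a median change of -1.25 and -0.9996. PCGF3 was the 24th lowest of the 299 in vivo and the 7th lowest in vitro.

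As a share of all PCGF3 reads, the second set made up 7.31% (95% Wilson interval 6.78 to 7.88%) and 14.8% (14.2 to 15.5%) in the tumours. In the cultures it made up 4.28% (3.86 to 4.74%) and 11.1% (10.4 to 11.9%). At day 0 it made up 41.7% (41.3 to 42.2%) and 44.5% (43.5 to 45.4%). The share was lower in each later library than in either day 0 library, and the 2 libraries of a group differed by more than counting error in all 3 groups. Such shares were not computed for other genes. A falling share is not particular to PCGF3, since the median set difference of the 299 genes changed by -1.25 in vivo and -0.9996 in vitro.

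Tumours and cultures were also compared directly, without the day 0 libraries in the contrast. The second set sum was 173 and 236 CPM in vivo and 90.9 and 172 CPM in vitro, a log2 difference of 0.64 ± 0.54 that did not pass the test (edgeR adjusted p 0.486). Of single guides, B5 was at a log2 difference of 3.91 ± 1.08, in vivo minus in vitro, and guide B2 was at -2.60 ± 1.44, with edgeR adjusted p of 0.230 and 0.452. The tumours of B2, at 1.11 and 0.91 CPM, lay between its cultures at 0.784 and 11.5 CPM, so its groups overlapped. Guide B5 was the only PCGF3 guide with both tumours above both cultures, as were 19.4% of all guides. The other 8 guides differed between the arms by less than 0.63 on the log2 scale.

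Set beside the library as a whole, the second set of PCGF3 had median log2 fold changes of -2.39 and -3.12 in the tumours and -4.17 and -3.24 in the cultures. For the 1457 second set guides of the 299 genes the medians were -0.85 and -0.78 in the tumours and -0.61 and -0.62 in the cultures. For the 1492 first set guides of these genes they were 0.42 and 0.41 in the tumours and 0.41 and 0.44 in the cultures. Those of the first set of PCGF3 were 0.62 and 0.14 in the tumours and 0.72 and 0.16 in the cultures, so they lay on both sides of these medians in each arm. Among the 299 genes they were the 187th and 93rd lowest in the tumours and the 272nd and 64th lowest in the cultures. By the fitted median of its second set, PCGF3 stood 31st lowest of the 299 genes in vivo and 9th lowest in vitro. The fitted median of its first set stood 128th lowest in vivo and 166th lowest in vitro.

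The genes whose guides moved most like those of PCGF3 were taken by the smallest Euclidean distance over 8 values, the median log2 fold change of each set in each of the 4 later libraries. They were GEMIN2, a member of the SMN complex that assembles spliceosomal RNPs (distance 1.41), SAE1, a subunit of the SUMO-activating enzyme (1.95), SUMO2, a ubiquitin-like modifier (2.04), FFAR1, a fatty acid receptor (2.24), and AAMP, which has a part in ribosome assembly (2.25). The median distance over the 299 genes was 5.50. In these 5 genes the first set medians lay between -0.71 and 1.16 and the second set medians between -4.46 and -2.19 over the 4 libraries. These values chose the genes and are given as a description. The likeness describes 4 libraries that share their day 0 reference.

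Of 41 PRC1 genes listed, 5 were among the genes analysed here, namely PCGF3, its catalytic partners RING1 and RNF2, and USP7 and WDR5, which occur in PRC1 variants built on other PCGF proteins and also work outside PRC1. Other PCGF genes, RYBP, YAF2 and the PRC2 subunits were not analysed here. Of the 5 second set sums, that of PCGF3 included, 2 were lower and 1 higher in vivo, where 20.1% of all 348 second set sums were lower and 8.33% higher. In vitro 3 were lower and 0 higher, where 4.89% of all were lower and 0% higher.

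In the main fit RNF2 and RING1, the ligases that bind PCGF3, were not called lower in either arm by their second set sums. The second set sum of RNF2 was 2120 and 2121 CPM in vivo, 1262 and 934 CPM in vitro and 1133 and 1214 CPM at day 0. Its log2 fold change was 0.85 in vivo (edgeR adjusted p 0.0351), where the median non-targeting guide was at 0.57, and -0.10 in vitro (adjusted p 0.825). Scaled to the non-targeting guides the in vivo value was 0.32 and with total counts 0.34, past the threshold in neither (edgeR adjusted p 0.410 and 0.369). Without either day 0 library or either day 14 library it was 0.90 to 0.95. The call was lost in these fits, as were nearly all calls of a higher sum in the library. The first set sum of RNF2 was also called higher in vivo (1.39, edgeR adjusted p 0.0324), as were 122 of the 299 first set sums. The difference between the RNF2 sets was -0.26 in vivo and -0.21 in vitro relative to day 0, past the threshold in neither (limma adjusted p 0.626 and 0.701).

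RING1 had a second set sum of 683 and 498 CPM in vivo, 346 and 292 CPM in vitro and 819 and 784 CPM at day 0. All 4 later libraries were below day 0, but the log2 fold changes of -0.44 in vivo and -1.33 in vitro did not pass (edgeR adjusted p 0.367 and 0.0874). Of the single second set guides of the 299 genes, 48.3% lay below both day 0 libraries in both tumours and 53.7% in both cultures. In vitro the RING1 sum was called lower with DESeq2 (-1.30, adjusted p 0.00457) and scaled to the non-targeting guides (-1.86, edgeR adjusted p 0.0211). These fits called 74 and 152 of 647 sums lower in vitro. In vivo the RING1 sum passed in neither (DESeq2 adjusted p 0.418 and edgeR adjusted p 0.105). The set difference of RING1 did, at -1.36 in vivo (limma adjusted p 0.0278) and -1.60 in vitro (limma adjusted p 0.0302), near the median of the 299 genes in vivo. Both of these calls were lost without either day 0 library or either day 14 library. Whether PCGF3 differed from RNF2 or RING1 was not tested.

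USP7, a deubiquitinase that also acts on p53 and MDM2, had second set sums of 242 and 883 CPM in vivo, 40.2 and 66.7 CPM in vitro and 1354 and 1129 CPM at day 0. Its log2 fold changes were -1.14 in vivo (edgeR adjusted p 0.141) and -4.53 in vitro (edgeR adjusted p 0.0224). The set difference of USP7 was lower in both arms. It was -2.85 in vivo (limma adjusted p 0.00278) and -5.44 in vitro (limma adjusted p 0.000482). Of the 5 second set guides of USP7, 4 lay below both day 0 libraries in both tumours. So did 48.3% of the second set guides of all genes tested for a set difference, and 30.6% of all guides. The second set sum of USP7 in vivo was called lower with the replicate block by label (-1.41, edgeR adjusted p 0.0452). Without in vivo replicate 2 this sum was at -2.36. WDR5, a scaffold shared with histone methyltransferase complexes, had 225 and 261 CPM in vivo, 343 and 157 CPM in vitro and 1272 and 1163 CPM at day 0. It fell in both arms, with log2 fold changes of -2.32 in vivo (edgeR adjusted p 0.0119) and -2.28 in vitro (edgeR adjusted p 0.0418). Its set difference was -3.85 in vivo (limma adjusted p 0.000620) and -4.12 in vitro (limma adjusted p 0.00114). The first set sum of WDR5 rose in vivo (1.74, edgeR adjusted p 0.0146), so its difference there does not reflect the second set alone. In vivo 122 of the 299 first set sums were called higher. As for PCGF3, the second set sum calls of WDR5 in both arms and of USP7 in vitro were lost without either day 0 library or either day 14 library. Every call of a lower sum in the library was lost in those fits. The set differences of these genes kept their calls.

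Of 6 deubiquitinases of histone H2A listed, which remove the mark that PRC1 places, USP16 was analysed here. Its second set sum was 923 and 904 CPM in vivo, 838 and 886 CPM in vitro and 1064 and 1352 CPM at day 0, with log2 fold changes of -0.40 and -0.49 that did not pass (edgeR adjusted p 0.224 and 0.260). Scaled to the non-targeting guides the sum was called lower, at -0.94 in vivo and -1.01 in vitro (edgeR adjusted p 0.0388 and 0.0273). That fit called 110 and 152 of 647 sums lower. With total counts the USP16 sum was called lower in vivo (-0.92, edgeR adjusted p 0.0300) and not in vitro, and with DESeq2 in neither arm. The set difference of USP16 was -1.45 in vivo (limma adjusted p 0.0214) and -1.01 in vitro (limma adjusted p 0.101), near the median of the 299 genes in both arms. The call in vivo was lost without either day 0 library or either day 14 library.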

How the data were processed

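The authors mapped reads to their custom guide library with MAGeCK and deposited whole-number counts per guide. MAGeCK and hg38 stand in the submitters' processing notes, and their versions are not given in the sources used here. Also deposited by the authors was a normalized signal, where every library's counts are multiplied by 1 constant factor of unstated origin.

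Of 3653 guides, 3607 averaged 30 or more counts at day 0 and were kept. TMM-scaled counts were tested by edgeR's quasi-likelihood functions glmQLFit and glmQLFTest (edgeR 4.0.16, R 4.3.3) in a single model of 3 groups, whose common dispersion was 0.303. Adjustment was by Benjamini-Hochberg over all guides at 0.05. Counts summed per gene and set (647 sums) were tested in the same way with the library sizes of the guide fit. The difference between sets, second minus first in mean log2(CPM + 1), was tested with limma 3.58.1 over 299 genes with at least 3 kept guides in each set. The fits were tested on simulated data. Each group had 2 libraries, so p-values measure the spread between these libraries.

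Alternatives were other scalings (median ratios, total counts, non-targeting guides), other filters and pseudocounts, DESeq2 1.42.0, fitting only the groups compared, replicate blocks, leaving out each library, and limma on the authors' normalized values as log2(value + 1). By the protocol the cells of a transduction gave the day 0 aliquot and both arms. Equal replicate numbers at day 0 and day 14 were therefore treated as pairs in the fits with a replicate block, and only there. Deviations from the group means correlated over guides at 0.0694 (day 14 and day 0), 0.00198 (in vivo and day 0) and 0.00252 (in vivo and day 14). The main fit has no block. Named genes were PCGF3, the members of the PRC1, PRC2 and H2A deubiquitinase lists in the library, and the 5 genes most like PCGF3. The members, guide sets and lists were chosen with earlier results of these data known. Tables were made with Python 3.11.15.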

Additional observations from a re-analysis of the deposited data

How the results depend on the processing

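The set difference of PCGF3 stayed past the threshold under all 16 alternatives tried in each arm, from -3.78 to -3.05 in vivo and from -4.80 to -3.64 in vitro. The other scalings and filters could hardly move this difference, as all 10 guides passed each filter and both sets share a library's scaling. It stayed between -3.53 and -3.47 in vivo and between -4.28 and -4.22 in vitro under these, so they test it little. The second set sum kept its sign throughout and lost its call under some. With a replicate block by label it was -2.16 in vivo and -2.84 in vitro (adjusted p 0.0173 and 0.0156), and that block changed no call of PCGF3. With both tumours in block 1 it was -1.87 in vivo and -2.84 in vitro (adjusted p 0.0897 and 0.0783). Fitted to the 2 groups alone it was -2.04 in vivo (edgeR adjusted p 0.0565), in a fit that called 0 of 647 sums lower. With each library left out it ranged from -2.38 to -1.93 in vivo and from -3.26 to -2.35 in vitro. The calls were lost without day 0 replicate 1 or 2 or day 14 replicate 1 or 2, as was every other call of a lower sum in the library. PCGF3 guides lower at an adjusted p under 0.05 numbered 0 in each arm with edgeR, which called 41 in vivo and 0 in vitro over all 3607 guides. With DESeq2 they numbered 4 in vivo and 4 in vitro, of 370 and 125 called. With limma on the authors' normalized values they numbered 3 and 2, of 260 and 48. Scaling to the non-targeting guides gave 1 in vivo, of 136, and the 2 groups alone gave 4 in vitro, of 293. With an in vivo library left out more PCGF3 guides were called, as were more guides over the whole library. At an unadjusted p under 0.05 the 4 second set guides became 1 in vivo and 2 in vitro where day 0 replicate 1 was left out, 2 in vivo and 3 in vitro where day 0 replicate 2 was, and 3 in vitro where day 14 replicate 1 was. The first set sum in vitro was -0.00462 with scaling to the non-targeting guides and -0.00399 with limma on the authors' values. It was 0.52 with the 2 groups alone (edgeR adjusted p 0.0219), in a fit that called 145 of 647 sums higher in vitro. With a library left out the first set sum ranged from 0.19 to 0.89 in vivo and from 0.26 to 0.82 in vitro. The log2 difference of the second set sum in vivo against in vitro ranged from 0.13 to 1.23 and passed under none. The causes of these shifts were not tested. With 2 libraries a group, and 3 to 6 counts in the lowest guides, small differences between guides or arms may have gone undetected. Whether depth or the spread between libraries set this limit was not tested.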
